A study of Bos taurus with 8 samples.

Results

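The miRNAs described here are those with the miRBase names miR-2286 to miR-2492 and miR-2881 to miR-2904, blocks of numbers that were largely given to miRNAs first found in cattle. Members were taken by name alone, with arm and letter suffixes ignored. No measured value entered this rule, but earlier results of these data were known when it was set. Of 534 bovine miRNAs listed for each library, 110 were members, with 93 different numbers. The range miR-2286 to miR-2492 held 102 of them and the range miR-2881 to miR-2904 held 8. The prefix bta, for Bos taurus, is left out of the names.

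Small RNA had been sequenced from the sera of 4 healthy lactating Holstein cows and from exosomes isolated from the same sera, with 1 library per cow and sample type. All 8 libraries thus came from healthy animals for which no treatment was named, and there was no other group. Sera RNA was extracted with a Norgen kit and exosome RNA with Invitrogen kits, so a difference by sample type and one by extraction method cannot be told apart. The exosomes were obtained with a commercial isolation kit, and no protein marker of exosomes was measured in these tables.

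A miRNA is a short RNA cut from 1 of the arms of a hairpin precursor, and it guides Argonaute proteins to messenger RNAs that match its seed. Names ending in 5p and 3p mark the arm. In blood, miRNAs circulate inside vesicles such as exosomes and also outside them, bound to protein. Numbers in miRBase follow the order of discovery, and neighbouring numbers imply no likeness of sequence or function. The members are thus a class by discovery and not a family with a shared seed. For most of them no function is established, and none is assumed here.

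Values were in RPM, the reads of a miRNA per 1000000 miRNA reads of its library, with no correction for length, which varies little among miRNAs. Whole reads could be recovered from the RPM values. Depth was 264769 to 590162 miRNA reads for sera and 60682 to 157710 for exosomes, so a single read stood for between 1.69 and 3.78 RPM in sera and between 6.34 and 16.5 RPM in exosomes. A miRNA without reads could still have been present at up to 3 reads, or between 5.08 and 11.3 RPM in sera and between 19.0 and 49.4 RPM in exosomes. These limits and all intervals cover counting error only. The libraries held blood cell miRNAs in both sample types: 5 of 5 erythrocyte miRNAs (miR-486, miR-451, miR-144, miR-16a and miR-16b) were detected in every library and made up 18.0 to 26.8% of sera reads and 20.7 to 40.1% of exosome reads, and 4 of 4 platelet and leukocyte miRNAs (miR-223, miR-150, miR-142-5p and miR-126-3p) made up 3.20 to 4.05% and 3.20 to 4.59%. The liver miRNA miR-122 was at 0 to 0.0108%.

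Reads were found for 71 of the 110 members and not for the other 39. Among the 71, 17 members had 1 read over all 8 libraries, 7 had 2 reads, 26 had 3 to 9 and 21 had at least 10. The median was 1 read per member, against 42 reads for the 424 listed miRNAs outside the class. At least 10 reads were reached by 19.1% of the members and by 63.2% of the other miRNAs. The miR-2284 and miR-2285 family, a large ruminant family that stands just before the members in the numbering, lay between these values: 44 of its 51 miRNAs had reads, 35.3% had at least 10 and the median was 5 reads.

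Of the 71 members with reads, 39 were found in both sample types, 25 in sera only and 7 in exosomes only. The members found in sera only had at most 9 reads (miR-2447, with 4 reads in cow 2 and 5 in cow 3), and the 7 found in exosomes only had 1 read each. A total of 19 members had reads in a single library. Only miR-2419-5p, miR-2415-3p, miR-2457 and miR-2904 had reads in all 8 libraries. By the study's rule, above 1 RPM in 2 or more cattle of either sample type, 45 members were expressed, or 40.9% of those listed, against 68.4% of all listed miRNAs. In the range miR-2881 to miR-2904, 7 of 8 members had reads, all of them in both sample types, and miR-2899 had none. Identical RPM values in every library were shared with another miRNA by 25 members, all with 1 to 3 reads. The pair miR-2319a and miR-2319b is one such case, with 1 read in sera and 1 in exosomes each, and whether such miRNAs share the same reads cannot be told from the tables.

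In sera, 31, 45, 36 and 40 members had reads in cows 1 to 4 (38.0 ± 5.94, SD, n = 4). In exosomes the numbers were 15, 18, 23 and 30 (21.5 ± 6.56, n = 4). Every exosome library had fewer members with reads than every sera library. Depth moved with this difference. When the expected number was computed for 60682 reads, the total of the smallest library, it was 15.2 ± 1.91 in sera and 16.0 ± 2.42 in exosomes, and the libraries overlapped. A difference in the number of members was therefore not detectable at equal depth.

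**Figure D1:**
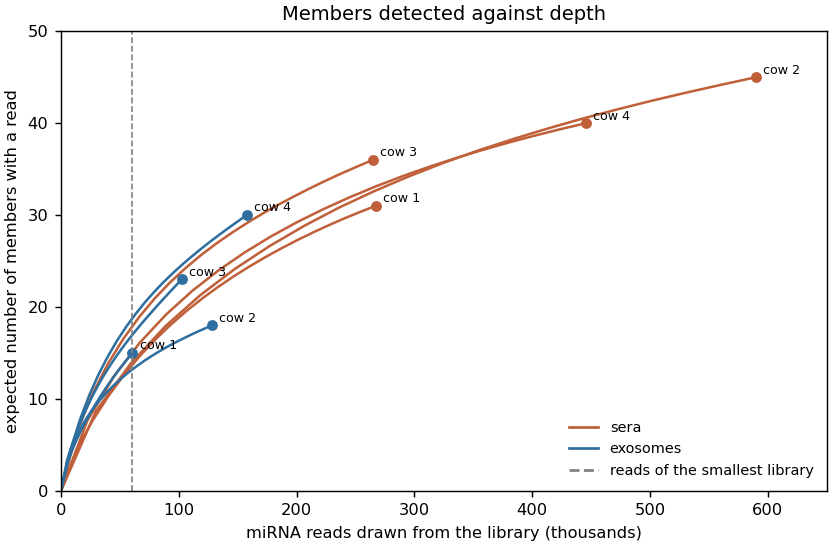
Expected number of members with at least 1 read (vertical axis) when a given number of miRNA reads is drawn from a library (horizontal axis). Each line is a library and its end point is the number found, from 31 to 45 in sera and from 15 to 30 in exosomes; at the dashed line, the 60682 reads of the smallest library, the sera and exosome lines overlap.

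The members held 1559 of the reads, and their share of a library was small. In sera it was 0.0505% in cow 1, 0.0590% in cow 2, 0.157% in cow 3 and 0.0541% in cow 4, with a mean of 0.0802 ± 0.0514% (SD, n = 4). In exosomes it was 0.0709%, 0.0772%, 0.169% and 0.0659%, with a mean of 0.0957 ± 0.0490% (n = 4). Cow 3 was the highest in both sample types, and its Wilson 95% intervals, 0.143 to 0.173% in sera and 0.146 to 0.196% in exosomes, lay above those of the other cows. The exosome share was above the sera share in each of the 4 cows. The groups overlapped and the means differed by less than 1 SD. That SD is the spread between cows and does not measure the spread of the difference within cows. Both the overlap and the size of the SD came from cow 3. Without cow 3 the groups did not overlap, with means of 0.0545 ± 0.00424% in sera and 0.0713 ± 0.00564% in exosomes (SD). The miR-2284 and miR-2285 family held more reads with fewer names, 0.377 ± 0.0722% in sera and 0.404 ± 0.0857% in exosomes, and cow 3 was the highest there too, with 0.483% and 0.527%.

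**Figure D2:**
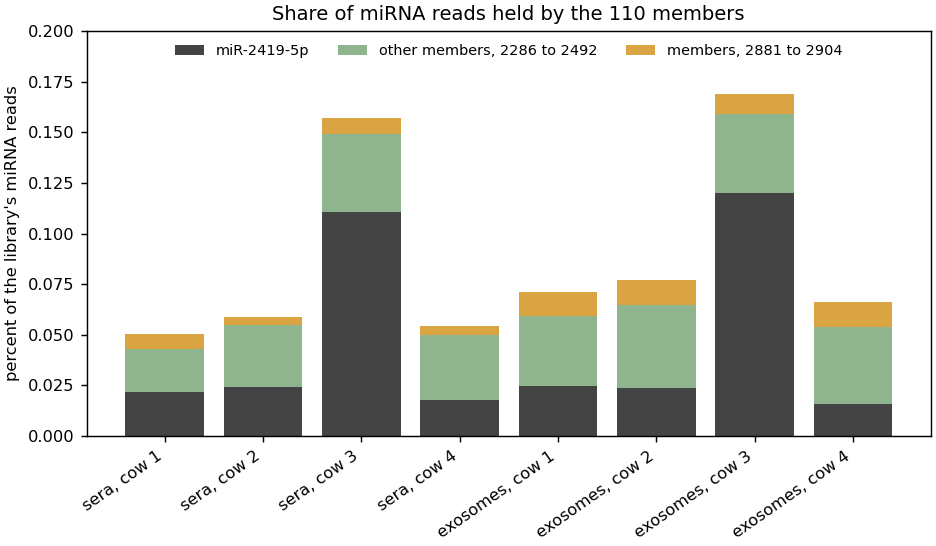
Percent of each library's miRNA reads (vertical axis) held by miR-2419-5p, by the other members from miR-2286 to miR-2492 and by the members from miR-2881 to miR-2904, stacked, for the 4 sera and 4 exosome libraries. Cow 3 stands at 0.157% in sera and 0.169% in exosomes against 0.0505 to 0.0772% in the other 6 libraries, and its surplus lies in miR-2419-5p.

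A single miRNA, miR-2419-5p, held 765 of the 1559 reads (49.1%). The first 2 members by reads held 57.9%, the first 5 held 68.2% and the first 10 held 79.8%. Without miR-2419-5p the members' share in sera was, for cows 1 to 4, 0.0288, 0.0347, 0.0465 and 0.0366% (0.0366 ± 0.00733%) and 0.0461, 0.0538, 0.0488 and 0.0501% in exosomes (0.0497 ± 0.00318%). The exosome share was again the higher within each cow, and the groups overlapped only where the sera of cow 3 (0.0465%) passed the exosomes of cow 1 (0.0461%). The share is a sum over chosen names, so it was not tested.

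The range miR-2881 to miR-2904 held 138 reads. Its share in sera was, for cows 1 to 4, 0.00749, 0.00441, 0.00793 and 0.00426% (0.00602 ± 0.00196%) and 0.0115, 0.0125, 0.00976 and 0.0120% in exosomes (0.0115 ± 0.00119%). The sample types did not overlap, and the exosome share was the higher in 4 of 4 cows. This separation leaned on 1 member, miR-2889, with 20 of the 52 exosome reads and 17 of the 86 sera reads. In the exosomes of cow 2 it held 10 of 16 reads. Without miR-2889 the sample types overlapped, and the exosome share was not the higher in every cow. The intervals of single libraries were wide, for example 0.00559 to 0.0238% for the 7 reads in the exosomes of cow 1. The summed share of the 5 erythrocyte miRNAs was also higher in the exosomes of each cow (18.0 against 20.7%, 26.8 against 40.1%, 18.8 against 30.8% and 21.9 against 32.5%). Among them miR-486, the most abundant, was higher in the exosomes of 4 of 4 cows and miR-451 of 2, while miR-144, miR-16a and miR-16b were lower in the exosomes of all 4. Their part in the difference of the range was not tested. For the range miR-2286 to miR-2492 the shares were 0.0741 ± 0.0502% in sera and 0.0843 ± 0.0501% in exosomes and overlapped.

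**Figure D3:**
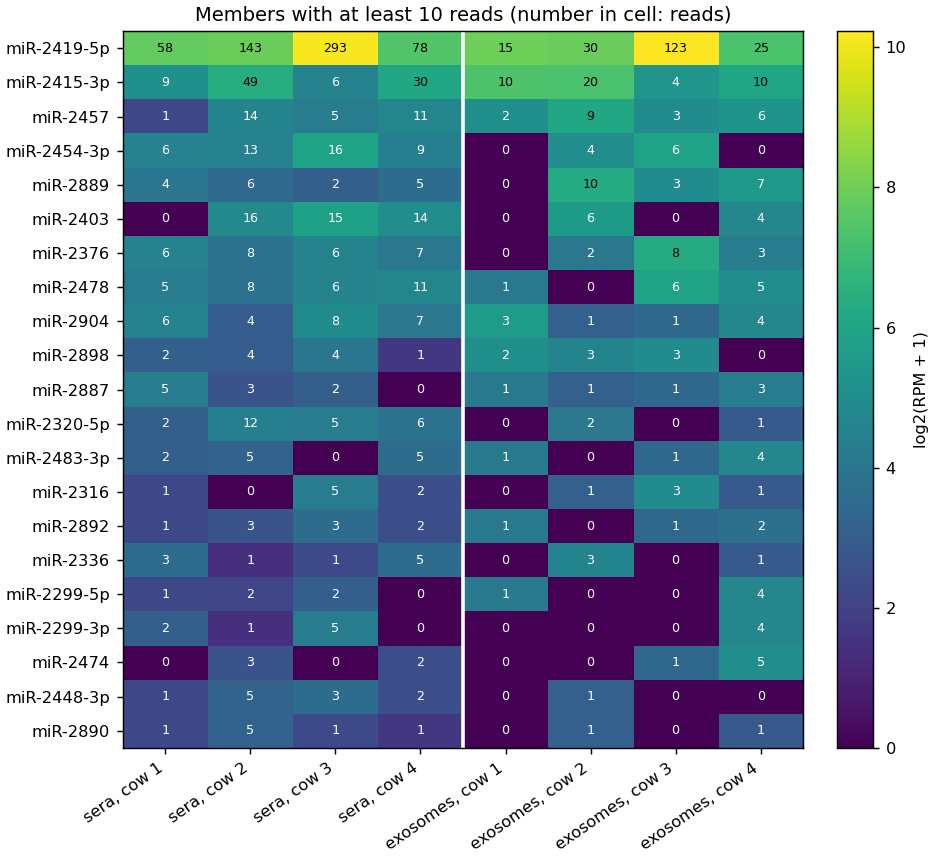
The 21 members with at least 10 reads over the 8 libraries, ordered by mean RPM. Colour gives log2(RPM + 1) and the number in each cell the reads behind it; miR-2419-5p, with 15 to 293 reads per library, is the only member above 50 reads in any library, and most other cells rest on fewer than 10 reads.

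Ranked by mean RPM, miR-2419-5p stood at place 101 of the 534 listed miRNAs and the next member, miR-2415-3p, at place 163. In the RefSeq annotation of the assembly ARS-UCD2.0 the gene of miR-2419-5p, MIR2419, lies in no other gene. The level of miR-2419-5p in sera was 217, 242, 1107 and 175 RPM in cows 1 to 4, from 58, 143, 293 and 78 reads. In exosomes it was 247, 234, 1201 and 159 RPM, from 15, 30, 123 and 25 reads. Both libraries of cow 3 stood far above the other 6, and sera and exosomes of the same cow were close to each other. Cow 3 was 5.23 times the mean of the other 3 cows in sera and 5.63 times in exosomes. Within the cows, exosomes were 1.14, 0.965, 1.08 and 0.906 times the sera. The log2 fold change of sera over exosomes was -0.03 (SE 0.63, adjusted p = 0.985 with limma over 365 miRNAs). With the cow as a block the SE fell to 0.21 and the adjusted p was 0.953.

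The second member, miR-2415-3p, lay, for cows 1 to 4, at 33.7, 83.0, 22.7 and 67.3 RPM in sera and at 165, 156, 39.0 and 63.4 RPM in their exosomes. Exosomes were the higher in 3 of 4 cows, by 4.89, 1.88 and 1.72 times in cows 1 to 3, and the sample types overlapped. Its gene lies in a long non-coding RNA gene, LOC132344926. The log2 fold change was -0.96 (SE 0.63, limma adjusted p = 0.368). It did not pass with limma and the cow as a block (adjusted p = 0.155), but it passed with edgeR and the cow as a block (log2 fold change -1.08, adjusted p = 0.0243). The other arm, miR-2415-5p, was listed and had no reads against 138 for the 3p arm.

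Higher levels in exosomes were also recorded for miR-2457, whose gene lies in SLC22A4, a gene of an organic cation transporter. It was at 3.70, 23.7, 18.9 and 24.7 RPM in sera and at 33.0, 70.2, 29.3 and 38.0 RPM in exosomes. The sample types did not overlap and exosomes were the higher in 4 of 4 cows, on 1 to 14 reads per sera library and 2 to 9 per exosome library. The gap between 24.7 RPM in the sera of cow 4 and 29.3 RPM in the exosomes of cow 3 was narrow. It was less than a single read in that exosome library (9.76 RPM). The share of all miRNAs tested without such an overlap was not computed. The log2 fold change was -1.40 (SE 0.78), and the adjusted p was 0.276 with limma and 0.274 with edgeR. The difference thus did not pass the test.

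The member miR-2889, whose gene lies in ZSWIM6, was at 15, 10.2, 7.60 and 11.2 RPM in sera and at 0, 78.0, 29.3 and 44.4 RPM in exosomes. Exosomes of cows 2 to 4 stood above all 4 sera libraries, while the exosomes of cow 1, the smallest library, had no read. At the sera levels 4.76 reads would have been expected over the 4 exosome libraries and 20 were found. With limma the log2 fold change was -0.63 (SE 1.21, adjusted p = 0.779). On recovered reads it was -2.15 with edgeR (adjusted p = 0.0998), -2.30 with DESeq2 (adjusted p = 0.0271) and -2.13 with edgeR and the cow as a block (adjusted p = 0.0160). The call for miR-2889 therefore depended on the test.

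**Figure D4:**
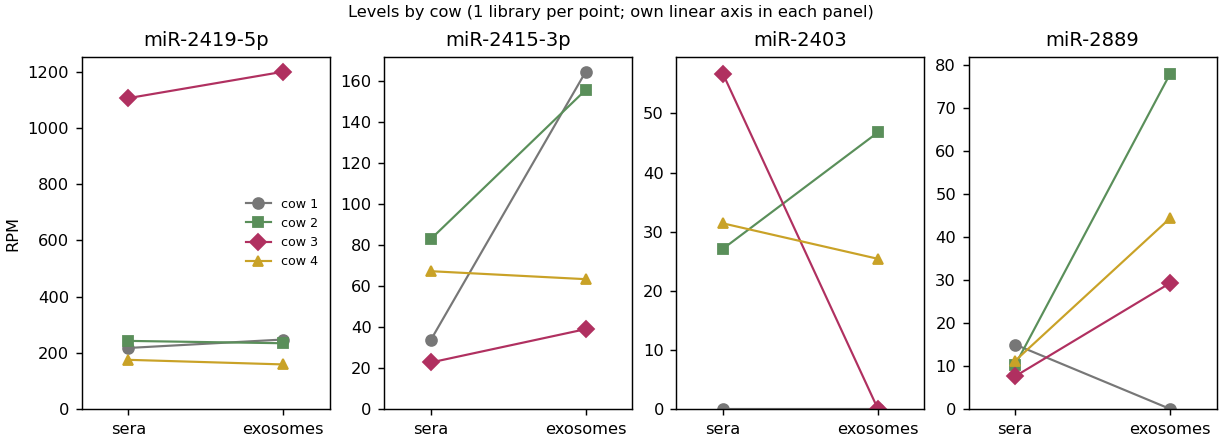
RPM (vertical axes, linear, a separate scale in each panel) of miR-2419-5p, miR-2415-3p, miR-2403 and miR-2889 in sera and exosomes, with 1 library per point and a line joining the libraries of a cow. The lines of miR-2419-5p are nearly flat and cow 3 is at 1107 and 1201 RPM; miR-2403 is at 0 in both libraries of cow 1; miR-2889 is higher in the exosomes of cows 2 to 4.

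Of the remaining members of the range miR-2881 to miR-2904, miR-2904 was at 22.5, 6.80, 30.2 and 15.7 RPM in sera and at 49.4, 7.80, 9.80 and 25.4 RPM in exosomes, and the sample types overlapped. For miR-2898 the values were 7.50, 6.80, 15.1 and 2.20 RPM in sera and 33.0, 23.4, 29.3 and 0 RPM in exosomes. Exosomes of 3 cows stood above all sera libraries for miR-2898, on 2 to 3 reads each. The other 4 members with reads in this range, miR-2887, miR-2892, miR-2890 and miR-2903, had 16, 13, 10 and 9 reads in all. Within cows, exosomes were the higher in 3 of 4 cows for miR-2887, in 2 for miR-2892 and in 1 for miR-2890.

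Members with sera the higher in every cow had few reads. Sera exceeded exosomes in 4 of 4 cows for miR-2320-5p, at 7.50, 20.3, 18.9 and 13.5 RPM against 0, 15.6, 0 and 6.30 RPM. The same held for miR-2448-3p, at 3.70, 8.50, 11.3 and 4.50 RPM against 0, 7.80, 0 and 0 RPM. The sample types overlapped for both, the log2 fold changes were 2.19 (SE 1.07) and 2.11 (SE 0.94), and the limma adjusted p was 0.213 and 0.170. For miR-2448-3p, 3.18 reads were expected in exosomes at the sera levels and 1 was found. In limma, miR-2454-3p (54 reads) and miR-2403 (55 reads) were also on the side of sera. Their log2 fold changes were 2.13 (SE 1.32) and 1.34 (SE 1.55), with limma adjusted p of 0.345 and 0.647. Sera were the higher in 3 and 2 of 4 cows, and edgeR with TMM gave log2 fold changes of 0.12 and 0.14.

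The remaining members with at least 10 reads did not separate the sample types. For miR-2478 the values were 18.7, 13.6, 22.7 and 24.7 RPM in sera and 16.5, 0, 58.6 and 31.7 RPM in exosomes, and each type was the higher in 2 of 4 cows. For miR-2483-3p, whose gene lies in TENM1, they were 7.50, 8.50, 0 and 11.2 RPM and 16.5, 0, 9.80 and 25.4 RPM, with exosomes the higher in 3 of 4 cows on 1 to 4 reads. The level of miR-2316 was highest in cow 3 in both types, at 18.9 RPM in sera against 0 to 4.50 RPM in the other cows and at 29.3 RPM in exosomes against 0 to 7.80 RPM. For miR-2336 the sera lay between 1.70 and 11.2 RPM, and only the exosomes of cows 2 and 4 had reads, at 23.4 and 6.30 RPM. The arms of miR-2299, whose gene lies in B3GLCT, and miR-2474, whose gene lies in SHB, had their highest values in the exosomes of cow 4, at 25.4 RPM for both arms and 31.7 RPM for miR-2474, from 4, 4 and 5 reads. The limma adjusted p of these members was between 0.667 and 0.896.

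With limma, none of the 45 members tested passed both thresholds, an absolute log2 fold change above 1 and an adjusted p below 0.05, as higher in sera, where 3.01% of the 365 miRNAs tested passed. None passed as higher in exosomes, where 1.37% of the 365 passed. At an unadjusted p under 0.05, limma gave 3 members, all higher in sera: miR-2388-3p, miR-2425-5p and miR-2448-3p. Their reads were 4, 5 and 11 in sera and 0, 0 and 1 in exosomes. They passed the filter through sera alone, so their direction is no support for a difference. Of the 365 miRNAs, 22.7% reached an unadjusted p under 0.05 as higher in sera. EdgeR gave 2 members at that level, miR-2457 and miR-2889, both higher in exosomes, as did 5.75% of the 365, and it called no member past both thresholds, where 3.84% of the 365 passed in either direction. DESeq2 called 1 member, miR-2889, and edgeR with the cow as a block called 2, miR-2415-3p and miR-2889, all higher in exosomes. Each of these called 3.56% of the 365 miRNAs as higher in exosomes, so 1 and 2 of 45 members are near the share of all miRNAs.

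The median log2 fold change of the 45 members was 0.59, against 0.57 for all 365 miRNAs tested, and 30 members were on the side of sera. For the 21 members with at least 10 reads it was -0.10, against 0.47 for all 289 miRNAs with as many reads, with 9 on the side of sera and 12 on that of exosomes. On recovered reads scaled by edgeR's TMM factors, the median of all 365 was 0.12, that of the 45 members -0.30 with 18 on the side of sera, and that of the 21 members -0.77 with 4 on the side of sera. The direction of the members' median thus depended on the test, limma on log values or edgeR on reads, and on the low values. Against limma, 4 of the 21 members turned sign in edgeR with library totals and 5 with TMM. The part of the TMM factors in the shift of the median was not tested. A member with reads in sera and none in exosomes gets a positive value however few its reads.

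**Figure D5:**
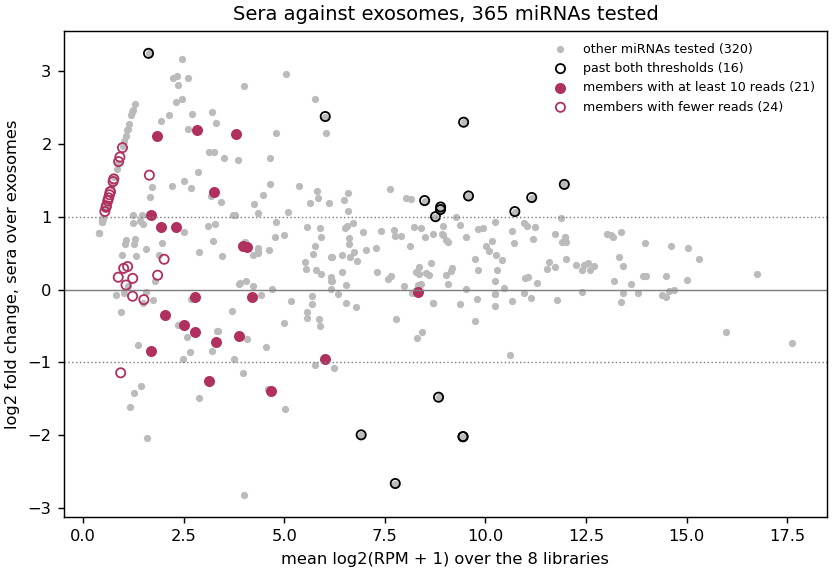
Log2 fold change of sera over exosomes (vertical axis) against mean log2(RPM + 1) over the 8 libraries (horizontal axis) for the 365 miRNAs tested with limma. Black circles mark the 16 miRNAs past both thresholds, none of them a member; the 21 members with at least 10 reads (filled) lie on both sides of 0, and most of the 24 with fewer reads (open) lie above 0 at the left edge.

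The cows were compared in an additive limma model of cow and sample type, which asks whether the cows differ by more than the spread left after both. Both libraries of a cow came from the same serum. The test thus describes these cows and does not cover the spread between blood draws. Of 45 members, 2 passed at an adjusted p under 0.05, where 25.5% of the 365 miRNAs tested passed. The first was miR-2419-5p (adjusted p = 5.3e-20, place 4 of 365), a value that rests on a spread pooled over all miRNAs, with 2 libraries per cow. It passed in 13 of 13 settings of the pseudocount, the filter, the test and the libraries used, with adjusted p from 1.0e-25 to 8.3e-08. The second was miR-2403 (adjusted p = 0.0126, place 76), which passed in 8 of 13 settings, with adjusted p from 0.00285 to 0.152.

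The gene of miR-2403 lies in SLC16A9, a gene of the monocarboxylate transporter family, and in LOC132344128. In cows 1 to 4 it was at 0, 27.1, 56.7 and 31.4 RPM in sera and at 0, 46.8, 0 and 25.4 RPM in exosomes. Cow 1 had no read in either library, and the exosomes of cow 3 had none although its sera held 15 reads. In sera the mean of cows 2 to 4 was 38.4 ± 16.0 RPM (SD, n = 3), at least 3.42-fold higher than the 3 reads (11.2 RPM) that a count of 0 allows in the sera of cow 1. At that mean 10.3 reads would have been expected in the sera of cow 1, and 5.81 in the exosomes of cow 3 at the level of its sera. Both libraries of cow 1 also stood apart in the summed muscle miRNAs (2.24% and 2.59% of reads against 0.0156 to 0.0330% elsewhere). Nearly all of this sum was miR-133a. In cow 1 miR-208b was also higher, at 644 and 643 RPM against 0 to 48.8 RPM elsewhere. The list did not move as a whole: miR-1 was at 3.70 RPM in the sera of cow 1 and at 0 elsewhere, and miR-206 at 0 in every library. The part of these miRNAs in the result for miR-2403 was not tested.

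Beside miR-2419-5p, miR-2454-3p was the highest in cow 3, at 22.5, 22.0, 60.4 and 20.2 RPM in sera and 0, 31.2, 58.6 and 0 RPM in exosomes. Both libraries of cow 3 stood above the other 6, but the cow test gave an adjusted p of 0.0645 with limma. Its gene lies in DNMT1, which encodes the maintenance DNA methyltransferase. For miR-2376, whose gene lies in TAPBP, the gene of tapasin, which loads peptides on MHC class I, the values were 22.5, 13.6, 22.7 and 15.7 RPM in sera and 0, 15.6, 78.1 and 19.0 RPM in exosomes. Here the exosomes of cow 3 stood apart and the sera of cow 3 and cow 1 were alike.

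Both libraries of 1 cow stood above the other 6 for 9 of the 45 members, against 19.7% of the 365 miRNAs tested. The cow was cow 3 for 6 of the 9 (miR-2316, miR-2376, miR-2388-5p, miR-2399-5p, miR-2419-5p and miR-2454-3p), cow 2 for miR-2411-3p and miR-2890 and cow 4 for miR-2313-5p. Among all 72 such miRNAs, cow 3 accounted for 34, cow 1 for 16, cow 4 for 15 and cow 2 for 7. The share of members was thus close to that of all miRNAs tested, and 5 of the 9 had 10 reads or more. Some gaps were narrow. In sera, cow 3 against the next cow was at 22.7 against 22.5 RPM for miR-2376 and at 7.60 against 6.70 RPM for miR-2399-5p. Both gaps were less than a single read in the sera of cow 3 (3.78 RPM).

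Both arms were listed for 14 hairpins. Reads were found for both arms of 10, for 1 arm of 3 and for neither arm of miR-2331. After miR-2415, the largest difference in reads was in miR-2320, with 28 reads for 5p and 4 for 3p. The arms of miR-2448 had 3 and 12 reads, those of miR-2483 had 9 and 18, and those of miR-2299 had 10 and 12. For most hairpins the reads were too few to set the arms apart.

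By RefSeq, 106 of the 110 members matched a miRNA gene, and 90 lay in another gene, 84 of them in a protein-coding gene. Of the matched members with reads 56 of 69 lay in another gene, and of the matched members without reads 34 of 37. Among the members with at least 10 reads, 12 of the 20 matched lay in another gene and 8 did not, among them miR-2419-5p, miR-2478, miR-2898 and miR-2316. The table used gave no strand, so whether a member is read in the direction of the gene around it was not determined.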

How the data were processed

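Reads had been filtered with CASAVA 1.8 and aligned per library to bovine miRBase release 21 with sRNAbench by the authors, who deposited RPM for each miRNA. All 8 libraries were used, grouped by their labels. Reads were recovered from the RPM steps, with 100% of values whole within 0.06 RPM.

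The main test was limma 3.58.1 (R 4.3.3; trend) on log2(RPM + 1) over the 365 miRNAs above 1 RPM in 2 or more cattle of either sample type, with Benjamini-Hochberg adjusted p under 0.05 and a log2 fold change over 1 or under -1. Alternatives were pseudocounts of 0.1 and 10, other filters, edgeR 4.0.16, DESeq2 1.42.0, the cow as a block and each library left out. The study's methods name edgeR, which needs counts, so it was run on recovered reads. Scripts were tested on simulated data. Sera and exosomes came from the same cows: deviations from the group means correlated at 0.740 to 0.860 within cows over 128 miRNAs. The correlations between cows averaged -0.244. Subtracting the group means pushes that average below 0 when cows match themselves, so it is no separate support.

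Members and lists were chosen with earlier results of these data known. Named are members with at least 10 reads, called members and hairpins with both arms; others were named after their values were seen. Intervals are Wilson 95%. Host genes come from RefSeq ARS-UCD2.0, used for neighbours only. Python 3.11.15, NumPy 2.4.6, pandas 2.3.3, SciPy 1.17.1 and matplotlib 3.10.9 were used.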

Additional observations from a re-analysis of the deposited data

Results flagged for a closer look

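Over 52 groups of 4 libraries, 9 groups had 1 library farther from the others than Dixon's 95% limit. For independent normal values, chance alone would set a library apart in about 1 in 20 groups. That rate does not hold here, where many counts are low or 0 and some sums share reads. In cow 3, 6 of the 9 groups concern miR-2419-5p or sums that hold it. The level of miR-2419-5p was 1107 RPM in the sera and 1201 RPM in the exosomes of cow 3. The share of all members was 0.1571% in its sera and 0.1689% in its exosomes, and that of the range miR-2286 to miR-2492 was 0.1492% and 0.1591%. The sera of cow 3 also stood apart for miR-2454-3p, at 60.4 RPM.

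The 2 others rest on few reads where the other exosome libraries had none, so any value above 0 would have passed the limit. These were miR-2299-3p in the exosomes of cow 4, at 25.4 RPM from 4 reads, and miR-2448-3p in the exosomes of cow 2, at 7.80 RPM from 1 read.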

How the results depend on the processing

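No member passed as higher in sera under any alternative run. As higher in exosomes, DESeq2 called 1 member and edgeR with the cow as a replicate block called 2 of 45 (3.56% of all 365 miRNAs in each), against 0 in limma with or without the block and in the other alternatives. The pairing changed no other call. Members called between cows numbered 1 with a pseudocount of 0.1 (21.6% of all miRNAs) and 1 to 8 with a library left out (8 of 45, or 17.8%, without the sera of cow 1, against 33.7% of all, 4 without those of cow 2, against 23.8%, and 1 without those of cow 4 or the exosomes of cow 2 or 4, against 17.5, 18.1 and 16.4%). With at least 3 reads required, 17.25 members per sera library and 8.50 per exosome library remained, and 15.2 in sera at equal depth. The members' share without cow 3 was 0.0545 ± 0.00424% in sera and 0.0713 ± 0.00564% in exosomes (SD), and the groups did not overlap.

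No log2 fold change that turned sign under an alternative passed the test there or in limma. In edgeR with TMM, with library totals, with the block, and in DESeq2, the values were -0.90, -0.67, -0.78 and -1.02 for miR-2376, -0.63, -0.44, -0.49 and -0.75 for miR-2478, -0.60, -0.35, -0.62 and -0.72 for miR-2336, and -0.75, -0.48, -0.72 and -0.53 for miR-2299-3p. For miR-2890 they were -0.036 with TMM, -0.16 with the block and -0.23 in DESeq2, and for miR-2454-3p -0.0036 in DESeq2. A pseudocount of 0.1 gave 0.10 for miR-2889, 0.58 for miR-2892 and 0.32 for miR-2299-5p, and one of 10 gave -0.0053 for miR-2376. With a library left out the values ran from -0.63 to 0.60 for miR-2419-5p, -2.03 to 0.074 for miR-2889, -0.63 to 1.47 for miR-2376, -0.66 to 1.30 for miR-2478, -0.47 to 0.37 for miR-2904, -1.61 to 0.24 for miR-2483-3p, -1.39 to 0.27 for miR-2316, -1.05 to 0.33 for miR-2892, -1.08 to 0.49 for miR-2299-5p and -1.55 to 0.12 for miR-2474. The cause was not tested. The depth of the exosome libraries, where 3 reads are 19.0 to 49.4 RPM, limits the exosome values of most members. In all 4 exosome libraries, miR-2419-5p and miR-2415-3p were above 3 reads.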
